A study of Homo sapiens with 24 samples.

Results

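Replication dependent histone genes encode the H1 linker histones and the H2A, H2B, H3 and H4 core histones that package newly copied DNA. The members described here were all genes whose array annotation symbol begins with HIST1H, HIST2H or HIST3H, or that carry the equivalent current symbol. The rule goes by symbol alone, although it was set with earlier results of these data known. Of the 73 such symbols on the array, 36 had at least 1 probe set that names no other gene (82 probe sets in all), out of 22260 genes with probe sets of their own. They comprised 6 genes of H1, 9 of H2A, 16 of H2B, 3 of H3 and 2 of H4, and 25 lie on chromosome 6 and 10 on chromosome 1. H2AC2P, H2BC20P and H2BP1 are annotated as pseudogenes. The other 37 symbols, mostly of H3 and H4, were read only by 89 probe sets shared between near-identical genes and are described apart.

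AC16 is an immortalised human line labelled as ventricular cardiomyocytes. All cells had been synchronised with 100 nM dexamethasone, a synthetic glucocorticoid, for 2 h. The 8 groups had 3 arrays each. Untreated cells were taken at T0 and at T16, and T4 and T20 each had a vehicle group and groups under 0.5 µM and under 5 µM of digoxin. Digoxin, a cardiac glycoside, blocks the sodium pump of the cell membrane. The sample labels place collection 4 h after treatment at both T4 and T20, whereas the growth protocol counts 4, 16 and 20 h from treatment, so the length of exposure at T20 is not settled. The labels do not say that the 3 replicates of a group came from separate cultures, so the p-values reflect the spread among these 24 arrays alone, and that spread may be technical. Of 23 cardiomyocyte markers, GATA4 was the 1 whose mean lay at or above the median gene value, and the myosins, troponins and natriuretic peptides lay below it. Of 14 fibroblast markers 13 lay at or above that value, as did 4 of 5 smooth muscle markers, 1 of 6 endothelial markers on the array and 0 of 4 leukocyte markers.

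In most cells the mRNAs of these histones are made during S phase, when DNA is copied, and are lost when replication stops. They end in a stem-loop in place of a poly-A tail, and the stem-loop binding protein SLBP is needed for their processing and translation. Their genes lie in clusters, where NPAT, a target of the cyclin E kinase, activates them, and H2B promoters are known for an octamer element bound by POU2F1 (Oct-1).

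The promoters of 31 of the 36 members could be read from RefSeq (GRCh38.p14) over 250 bases before and 50 after the gene start. The octamer ATTTGCAT, on either strand, stood in 16 of the 31 (51.6%), against 2.19% of 27305 genes in the table. It was found in 9 of 13 H2B and 6 of 7 H2A promoters, in 1 of 3 of H3, in 0 of 6 of H1 and in 0 of 2 of H4. CCAAT, on either strand, stood in 30 of 31 (96.8%, against 39.7% of all genes) and TATAAA, on either strand, in 21 (67.7%, against 14%). H2A and H2B genes often lie head to head, so some windows overlap, among them those of H2BC21 and H2AC20. A match describes the letters in the window and not a bound site. The 250 bases before the start are shown 5′ to 3′ for 5 members whose values carry the comparisons, with the octamer, CCAAT and TATAAA in capitals on either strand. H2BC21 is at chr1:149886683-149886932 (minus strand), H2BC17 at chr6:27893175-27893424 (plus strand), H2BC3 at chr6:26043714-26043963 (minus strand), H2BC14 at chr6:27814772-27815021 (plus strand) and H1-2 at chr6:26056471-26056720 (minus strand).
H2BC21: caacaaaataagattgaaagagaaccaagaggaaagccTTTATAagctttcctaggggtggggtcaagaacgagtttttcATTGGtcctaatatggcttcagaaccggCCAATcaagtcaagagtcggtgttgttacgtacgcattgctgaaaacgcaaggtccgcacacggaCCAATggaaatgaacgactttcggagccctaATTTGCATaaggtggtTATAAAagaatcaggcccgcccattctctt
H2BC17: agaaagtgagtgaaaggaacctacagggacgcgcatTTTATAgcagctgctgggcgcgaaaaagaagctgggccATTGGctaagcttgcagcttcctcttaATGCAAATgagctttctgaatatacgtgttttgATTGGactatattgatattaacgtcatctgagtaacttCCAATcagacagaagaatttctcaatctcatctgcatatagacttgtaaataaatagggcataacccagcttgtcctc
H2BC3: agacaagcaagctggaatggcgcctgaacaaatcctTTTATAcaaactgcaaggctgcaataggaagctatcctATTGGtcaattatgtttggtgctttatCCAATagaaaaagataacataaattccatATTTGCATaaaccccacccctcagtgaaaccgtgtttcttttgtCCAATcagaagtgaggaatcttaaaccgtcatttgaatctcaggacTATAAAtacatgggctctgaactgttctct
H2BC14: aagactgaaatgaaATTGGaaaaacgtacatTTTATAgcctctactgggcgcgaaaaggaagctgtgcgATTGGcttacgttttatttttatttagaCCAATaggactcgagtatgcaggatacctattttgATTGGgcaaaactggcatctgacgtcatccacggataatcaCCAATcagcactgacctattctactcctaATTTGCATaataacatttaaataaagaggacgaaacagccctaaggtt
H1-2: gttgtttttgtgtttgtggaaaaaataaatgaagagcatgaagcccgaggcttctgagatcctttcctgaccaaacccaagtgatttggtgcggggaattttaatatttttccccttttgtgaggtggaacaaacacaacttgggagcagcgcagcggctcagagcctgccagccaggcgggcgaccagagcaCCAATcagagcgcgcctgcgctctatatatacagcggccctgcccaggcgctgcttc
Counted back from the gene start, the octamer begins at -46 in H2BC21 and at -48 in H2BC14, near the start, and at -120 in H2BC3. In H2BC17 it begins at -149 and reads on the opposite strand, and the H1-2 window holds a single capitalised element, CCAAT at -57.

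Gene values are the median of a gene's own probe sets on a quantile normalised log2 scale, and each difference is followed by its standard error (SE) in a limma fit over all 24 arrays. Because the deposited values run from 1.28 to 19.93, differences are stated on that log2 scale and not as linear folds. Genes whose mean over the 24 arrays was at or above the median gene value, 6.02, were tested. That left 11048 genes, of which 26 were members, and a gene passed at a Benjamini-Hochberg adjusted p under 0.05 over all 11048. Both doses at a time share their vehicle arrays, and the comparisons between times share arrays with them, so they are not independent. The correlation across genes was 0.9788 to 0.9879 between arrays of 1 group and 0.9609 to 0.9858 between groups. With 3 arrays a group, the SE of a difference had a median of 0.229 among members and of 0.257 among all genes tested.

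Probe sets differ in brightness, so levels of different genes are not on a common scale, and each is given only against the filter. H1-4 (mean 17.09), H2BC12 (17.00), H2BC14 (15.94), H1-2 (15.88) and H2AC21 (15.43) had the highest means of the members. The lowest belonged to H2BC1 (3.47), HIST1H2BI (3.83, the array's symbol) and H3-4 (3.90). The histones known from testis, H1-6, H2AC1, H2BC1 and H3-4, were all among the 10 members below the filter. The other 6 were H1-1, H2AC2P, H2BC18, H2BC26, H4C7 and HIST1H2BI. Probe sets of a gene could lie far apart, and H1-1 fell below the filter with probe set means of 4.36, 5.72 and 15.51. Of the 36 members 10 rested on a single probe set, and since histone genes are near-identical in sequence, reads of a paralog by a probe set assigned to 1 gene cannot be told apart from that gene.

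The first question of the design was how digoxin changed these genes at T4. At T4, 5 µM digoxin gave higher values of 3 H2B genes and 1 H1 gene than vehicle, and no member passed as lower. Across all 11048 genes 7.97% passed, 3.74% as higher and 4.24% as lower, and of the 26 members tested 4 were higher. The median difference of the 26 was 0.345, against 0.0216 for all genes tested, and 20 of 26 lay above 0, against 52.3% of all genes. The 2 groups of arrays did not overlap for 14 of 26 members, against 28.5% of all genes tested. In bulk samples such as these, a change in the share of cells in S phase and a change in RNA per cell cannot be told apart.

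H2BC21, an H2B gene of the chromosome 1 cluster also known to give a longer polyadenylated transcript, had values of 10.52, 11.00 and 10.60 under 5 µM digoxin, against 8.54, 8.61 and 8.73 in vehicle. At 0.5 µM its values were 9.28, 9.29 and 9.27. The 3 groups of medians did not overlap and stood in the order of the dose. The median read the probe set with a mean of 8.95 in vehicle and that at 9.13 under 5 µM. At 0.5 µM it read either, so these differences partly set 1 probe set against another. In each of the 3 probe sets alone the 5 µM arrays lay above vehicle, but the 0.5 µM arrays overlapped 1 of these groups. The difference of the medians at 5 µM was 2.08 ± 0.219 (adjusted p = 3.69e-06), and that between 5 µM and 0.5 µM was 1.43 ± 0.219 (adjusted p = 0.0129). H2BC21 was 1 of the 3 genes on the array that passed between the doses at T4 (0.0272% of those tested), and that call was lost on the values as deposited, among other settings, and without any of the 3 arrays at 0.5 µM or without replicate 2 or 3 at 5 µM. At 0.5 µM against vehicle it differed by 0.652 ± 0.219 and did not pass (adjusted p = 0.135).

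H2BC20P, an H2B pseudogene of the same cluster, had 12.36, 12.79 and 12.23 under 5 µM digoxin at T4, against 11.56, 11.50 and 11.49 in vehicle. All 3 treated arrays stood above the vehicle arrays, by 0.947 ± 0.159 on average (adjusted p = 6.61e-04). H2BC17, an H2B gene of the chromosome 6 cluster, had 12.42, 13.08 and 12.23 under 5 µM, against 11.33, 11.56 and 11.26 in vehicle. Its groups did not overlap either, and the difference was 1.19 ± 0.291 (adjusted p = 0.0142). The linker histone gene H1-2 had 16.35, 16.52 and 16.40 under 5 µM, against 15.72, 15.70 and 15.75 in vehicle, without overlap. It rose by 0.698 ± 0.171 (adjusted p = 0.0143). Just outside the threshold lay H2BC14, with a difference of -0.536 (adjusted p = 0.0501), and H2BC5, with 0.715 (adjusted p = 0.051). Without replicate 2 of the 5 µM arrays, which was the highest of its group for H2BC17 and H1-2, these 2 genes no longer passed and H2BC14 did. Without replicate 3 of the T4 vehicle H2BC17 no longer passed, without replicate 1 of the T20 vehicle H2AC7 and H2BC14 passed as well, and without replicate 2 of the T20 arrays at 0.5 µM 8 members passed.

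**Figure D1:**
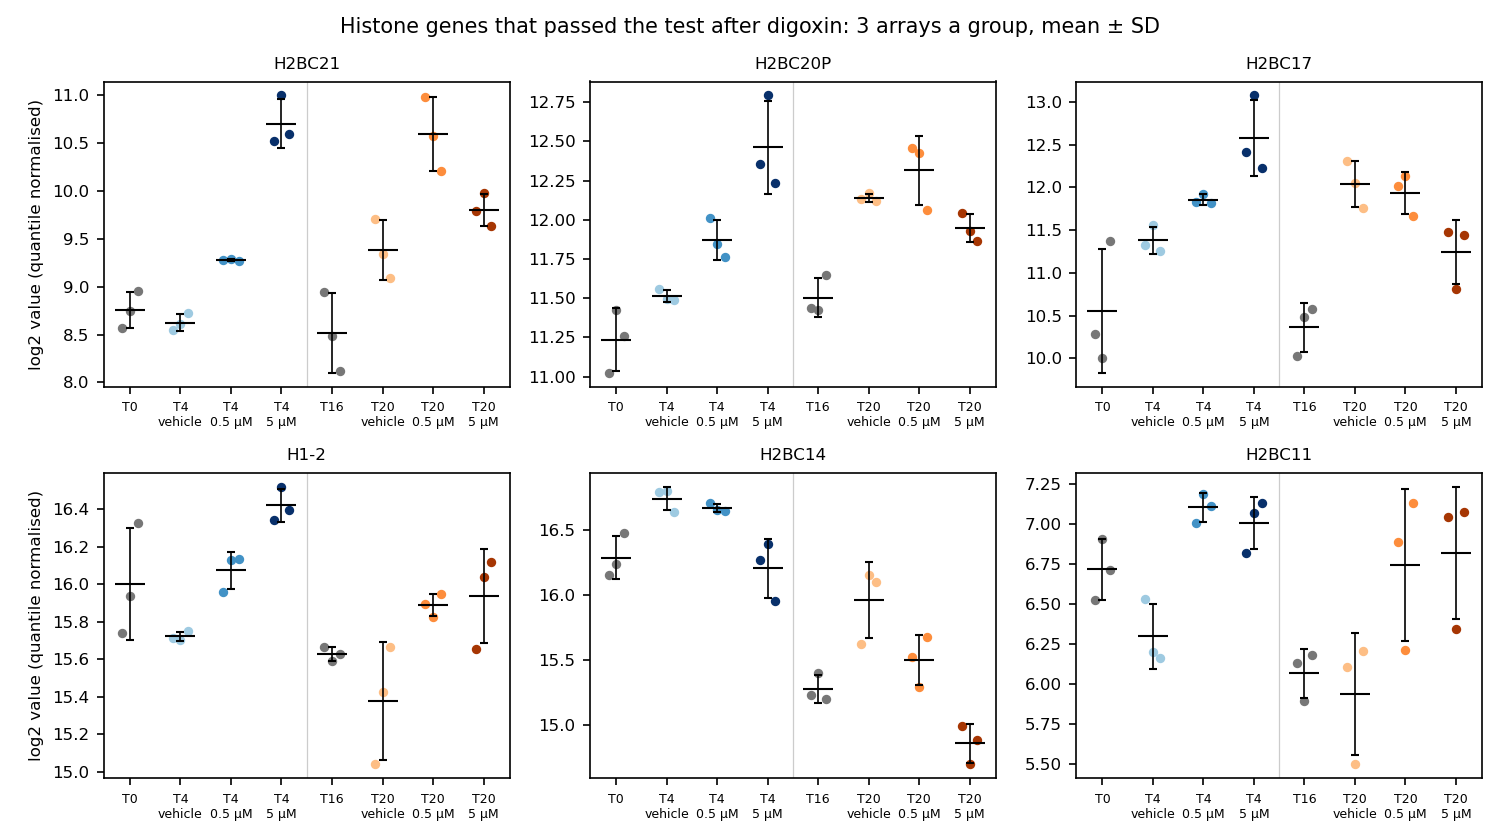
Log2 value (vertical axis, own scale per panel) of 6 histone genes in the 8 groups, with 3 arrays a group as points and the mean ± SD as bars. The 3 arrays at T4 under 5 µM digoxin stand above the T4 vehicle for H2BC21, H2BC20P, H2BC17 and H1-2, and the 3 at T20 under 5 µM stand below the T20 vehicle for H2BC14.

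At T4 and 0.5 µM 0 of 26 members passed by limma, where 2.72% of all genes did. At an unadjusted p under 0.05 there were 4, and H2BC11 passed with the median polish or the mean of probe sets and without replicate 2 of the T20 arrays at 0.5 µM.

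The probe sets of a gene did not all move alike, which bears on what the median stands for. H2BC21 has 3. The brightest, with a mean of 18.22, differed by 0.312 ± 0.17 at T4 under 5 µM (adjusted p = 0.632 over all probe sets), the second, at 9.13, by 2.53 ± 0.316 (adjusted p = 4.62e-04) and the third, at 8.95, by 0.871 ± 0.293. The gene's call at T4 therefore rests on the dimmer probe sets, and it is lost when the brightest alone stands for the gene. The median took the third in vehicle and the second under 5 µM. H2BC17 likewise has a bright probe set at 14.64, which differed by 0.787 ± 0.275 at T4 under 5 µM, and a middle one at 11.49, which differed by 1.19 ± 0.317. Its call at T4 is lost with the brightest probe set too (adjusted p = 0.053), so that 2 of the 4 calls end under that setting. At T20 under 5 µM these 2 probe sets moved in opposite directions, the bright one by 1.13 ± 0.275 (adjusted p = 0.0437) and the middle one by -0.794 ± 0.317 (adjusted p = 0.267). Whether the probe sets read different transcripts was not tested.

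**Figure D2:**
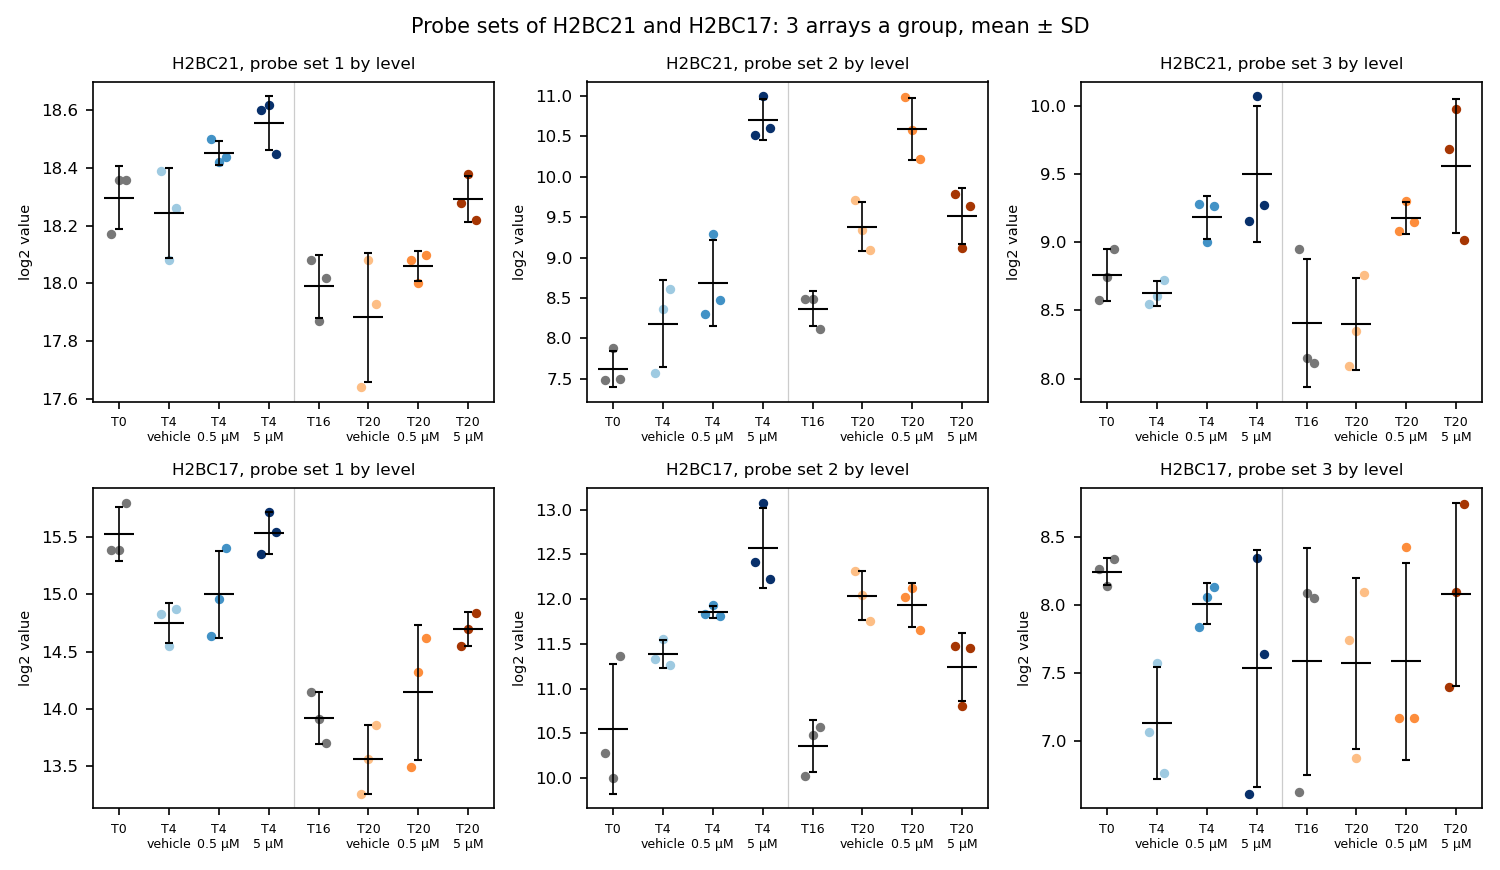
Log2 value (vertical axis, own scale per panel) of each probe set of H2BC21 and H2BC17 in the 8 groups, numbered from the brightest, with 3 arrays a group as points and the mean ± SD as bars. At T4 the second probe set of H2BC21 differs by 2.53 between 5 µM digoxin and vehicle and the first by 0.312, and at T20 the first 2 probe sets of H2BC17 move in opposite directions.

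The shared probe sets gave the same direction at T4 under 5 µM as these members. They could not be assigned to a gene, and 38 of the 89 name a set of 13 H4 genes, 22 name sets of H3 genes, 20 include H2A genes and 9 name H2B genes. Some hold identical values on every array, so that the 89 give 81 distinct profiles. Of the 89, 10 passed as higher and 0 as lower in the fit over all 352859 probe sets, in which 0.654% passed. These 10 are 6 distinct profiles. Of the 69 distinct profiles with a mean at or above the median of all probe set means, 56 lay above 0. So did 41 of the 52 of the members' own probe sets at that level, against 51.3% of all probe sets at that level. Probe sets that read the same genes are not independent.

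The strongest case by adjusted p was an H4 profile with 14.03, 14.15 and 14.56 under 5 µM digoxin at T4, against 11.52, 12.53 and 12.31 in vehicle, a difference of 2.13 ± 0.277 (adjusted p = 6.76e-04). A second H4 profile had 14.43, 14.55 and 14.37 under 5 µM, against 12.62, 12.89 and 12.82 in vehicle, which is 1.67 ± 0.224 (adjusted p = 8.89e-04). A profile shared by H3C13, H3C14 and H3C15 of the chromosome 1 cluster had 9.80, 9.69 and 9.60 under 5 µM, against 6.34, 7.17 and 6.46 in vehicle. It rose by 3.04 ± 0.449 (adjusted p = 0.00213), and the groups of all 3 profiles lay apart. The remaining calls were a profile of H2AC18 and H2AC19 (2.01 ± 0.303), one of 6 H2A genes (1.47 ± 0.246) and another of H4 (1.91 ± 0.373). At 0.5 µM 0 of the 89 passed at T4, where 0.136% of all probe sets did, and 0 passed at T20, where 0.230% did.

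**Figure D3:**
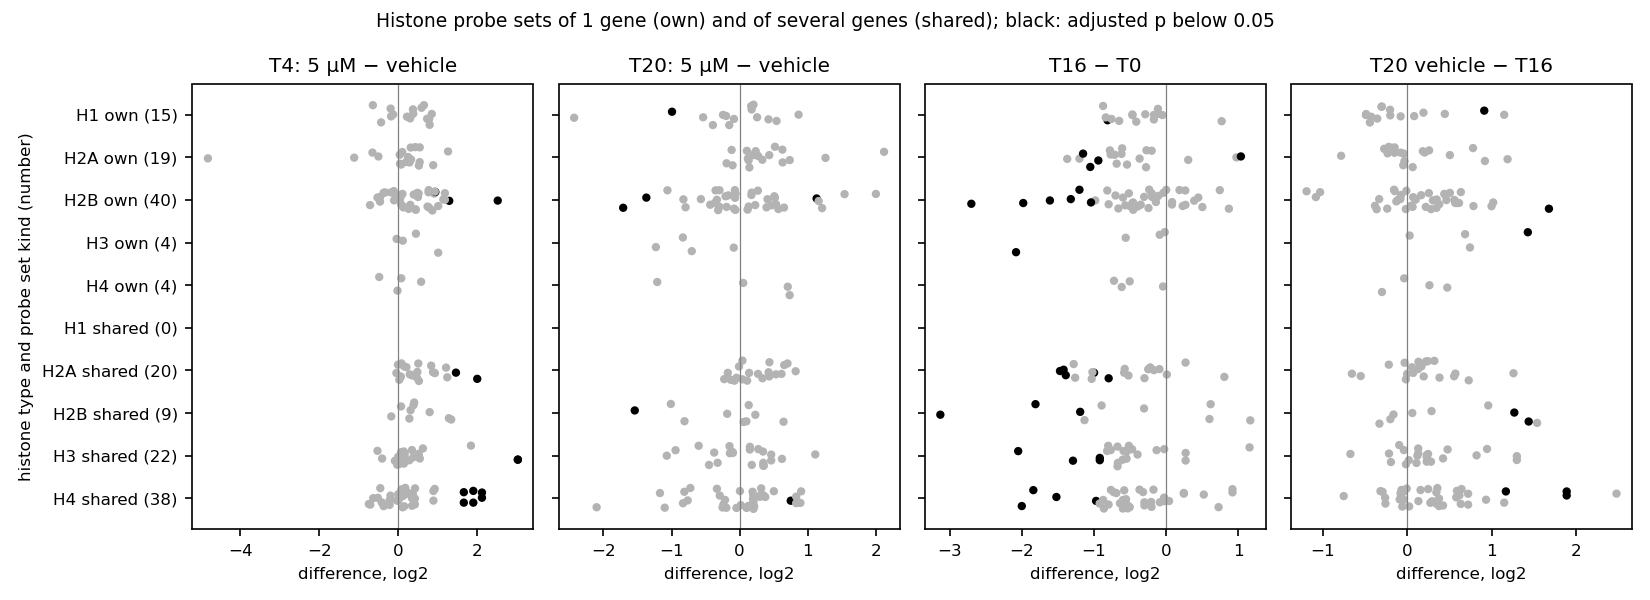
Difference in log2 value (horizontal axis) of each histone probe set in 4 comparisons, by histone type (rows), for probe sets of 1 gene (own) and of several genes (shared), with 3 sets of mixed type under H2A. Black points have an adjusted p below 0.05, and those of the shared sets lie right of 0 in T4 5 µM against vehicle (10 of 89) and left of 0 in T16 against T0 (17 of 89).

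At T20 the response to 5 µM digoxin was mixed. H1-2 and H2BC11 passed as higher and H2BC14, H3C13 and H4C6 as lower, so 5 of 26 members passed, where 12.5% of all genes did (6.74% higher and 5.75% lower). The median difference of the members was 0.00144, and 13 of 26 lay above 0. The arrays did not overlap for 10 of 26 members, against 28.7% of all genes tested. H2BC14, an H2B gene of the chromosome 6 cluster, had 15.00, 14.70 and 14.88 under 5 µM, against 15.63, 16.15 and 16.10 in vehicle. It fell by 1.10 ± 0.165 on the log2 scale (adjusted p = 1.28e-04), and its 0.5 µM arrays lay at 15.52, 15.30 and 15.68. Only the lowest vehicle array fell within the range of those 0.5 µM arrays, and the 5 µM arrays lay below both groups.

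H2BC11, another H2B gene, had 7.04, 6.35 and 7.07 under 5 µM at T20, against 6.11, 5.50 and 6.20 in vehicle, a difference of 0.882 ± 0.237 (adjusted p = 0.018). The groups lay apart, and its difference at T4 and at 0.5 µM was of like size without passing, from 0.707 to 0.807. The mean of H2BC11 over the 24 arrays, 6.587, lay close to the filter, and its T20 vehicle array at 5.50 lay below it. Its value is a median over 4 probe sets with means from 4.745 to 8.154, so the difference need not hold in each. H3C13, an H3 gene, had 12.82, 12.61 and 13.00 under 5 µM, against 13.39, 13.54 and 13.61 in vehicle. The 3 treated arrays were lower, by -0.703 ± 0.213 (adjusted p = 0.0346). The 6 shared probe sets that name H3C13 all differed the other way, by 0.15 to 0.463, without passing. H4C6, read by 1 probe set, had 7.98, 8.62 and 6.93 under 5 µM, against 9.47, 8.96 and 8.73 in vehicle, with a difference of -1.21 ± 0.384 (adjusted p = 0.0437). Its lowest vehicle array stood only slightly above its highest treated array, and its call was lost in 14 of the 24 fits that left out 1 array. Of the 38 shared probe sets that name H4C6, 24 lay above 0, and their median difference was 0.157. H1-2 had 15.66, 16.04 and 16.12 under 5 µM, against 15.04, 15.43 and 15.67 in vehicle, and these groups overlapped (0.56 ± 0.171, adjusted p = 0.0357).

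H2BC14 passed under each alternative run for this comparison, while the other 4 calls did not. Without replicate 2 of the T20 vehicle H2BC14 was the 1 call left, and between 2 and 3 of the 5 remained without another array of the T20 vehicle or of the T20 5 µM group. Of the 89 shared probe sets 1 passed as higher and 1 as lower, where 1.61% of all probe sets did. The higher one names 13 H4 genes, among them H4C6, whose own value was lower, and its call was lost on the values as deposited. The lower one, shared by 5 H2B genes, had 6.37, 6.35 and 6.70 under 5 µM, against 8.05, 8.40 and 7.58 in vehicle (-1.54 ± 0.275, adjusted p = 0.00593). Of the 82 probe sets of 1 gene, 1 passed as higher and 3 as lower, and 2 of the lower ones belong to members below the filter. The bright one of H1-1, a linker histone gene, had 14.78, 14.52 and 14.69 under 5 µM, against 15.53, 15.71 and 15.72 in vehicle (-0.993 ± 0.177, adjusted p = 0.00568). The brightest of the 8 of H2BC18, with a mean of 10.4, differed by -1.71 ± 0.352 (adjusted p = 0.0162).

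At T20 and 0.5 µM, 1 member passed, where 3.69% of all genes did. H2BC21 had 10.99, 10.58 and 10.22 at 0.5 µM, against 9.71, 9.34 and 9.10 in vehicle, a difference of 1.21 ± 0.219 (adjusted p = 0.00262). That call was lost with the median polish, with scaling to poly-A controls, with the brightest probe set and in the fit of only the arrays compared. A second member passed without replicate 2 or 3 at 0.5 µM or replicate 2 at 5 µM of T20, which was H2BC11 or H3C13. The arrays of H2BC21 at 5 µM lay lower than those at 0.5 µM, at 9.79, 9.97 and 9.64, but between the doses at T20 the difference of -0.793 ± 0.219 did not pass (adjusted p = 0.143). Of its probe sets only the second was lower (-1.08), and the brightest (0.233) and the third (0.38) were higher. Of the 26 members 0 passed between the doses at T20 by limma, where 0.434% of all genes did, while 6 had an unadjusted p under 0.05 and H2BC14 passed with the trended robust eBayes.

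Whether the response to digoxin differed between T20 and T4 was tested as a difference of differences. At 5 µM the effect on H2BC21 was 0.417 ± 0.219 at T20, against 2.08 ± 0.219 at T4, and the difference of -1.66 ± 0.31 passed (adjusted p = 0.0236). From the brightest down, its probe sets gave 0.0967, -2.39 and 0.287, and none passed, as no probe set on the array did. The effect on H2BC20P was -0.192 ± 0.159 at T20, against 0.947 ± 0.159 at T4, which is -1.14 ± 0.225 (adjusted p = 0.0449). For H2BC17 the difference was -1.99 ± 0.412 and did not pass (adjusted p = 0.0666). These 2 calls stood among 0.136% of all genes, and 6 of 26 members had a difference of effects above 0, with a median of -0.484. Leaving out each of the 24 arrays in turn ended the call of H2BC20P in 19 cases and that of H2BC21 in 8. Both were lost on the values as deposited and without any 1 of 7 arrays, namely replicates 1 and 2 of either vehicle, replicate 2 of the T4 5 µM group and replicates 1 and 3 of the T20 5 µM group. At 0.5 µM 0 of 26 members passed by limma, where 0.00905% of all genes did, 0 had an unadjusted p under 0.05, and 0 passed under each alternative.

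**Figure D4:**
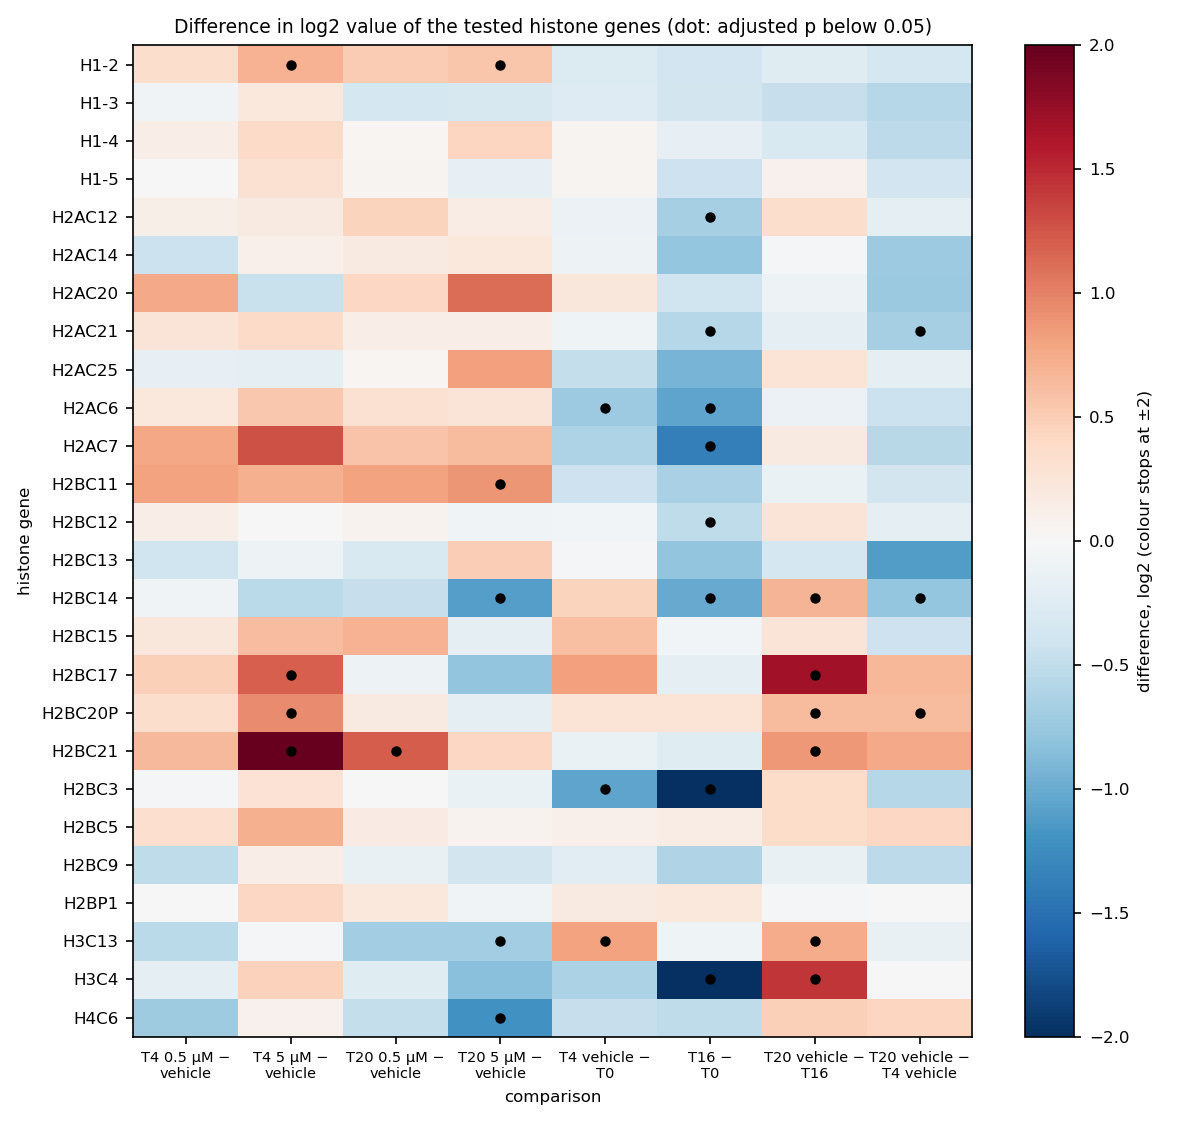
Difference in log2 value (colour, clipped at 2 in either direction) of the 26 tested histone genes (rows) in 8 comparisons (columns), with a dot where the adjusted p is below 0.05. Against vehicle, dots number 0 and 4 at T4 and 1 and 5 at T20 under 0.5 and 5 µM digoxin, and between times 3 in T4 vehicle against T0, 8 in T16 against T0, 6 in T20 vehicle against T16 and 3 in T20 vehicle against T4 vehicle, all higher in T20 vehicle against T16 and all lower in T16 against T0.

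In untreated cells at T16, 8 of 26 members were lower than at T0 and 0 were higher, where 15.0% of all genes passed, 6.65% as higher and 8.39% as lower. The median difference was -0.509, against -0.0185 for all genes, and 3 of 26 members lay above 0, against 48.5% of all genes. The arrays did not overlap for 14 of 26 members, against 30.2% of all genes tested. By type 4 of 7 H2A genes, 3 of 12 H2B genes, 1 of 2 H3 genes, 0 of 4 H1 genes and 0 of 1 H4 gene passed.

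H2BC3, an H2B gene, had 11.04, 10.72 and 11.11 at T16, against 13.07, 12.72 and 13.12 at T0, and fell by 2.01 ± 0.204 on the log2 scale (adjusted p = 7.51e-07). Both of its probe sets were lower, by -2.70 and -1.32. H3C4, an H3 gene, had 12.15, 11.26 and 10.86 at T16, against 13.28, 13.08 and 14.16 at T0, and fell by 2.08 ± 0.277 (adjusted p = 2.48e-05). Neither gene's groups overlapped. H2BC14 had 15.23, 15.40 and 15.20 at T16, against 16.15, 16.24 and 16.47 at T0 (-1.01 ± 0.165, adjusted p = 2.55e-04). H2AC6, an H2A gene, had 13.64, 13.78 and 13.56 at T16, against 14.61, 14.67 and 14.84 at T0 (-1.05 ± 0.182, adjusted p = 4.75e-04). These groups lay apart too, although 1 of the 4 probe sets of H2AC6 moved the other way, by 1.04 ± 0.225.

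The H2A genes H2AC12, with 10.48, 10.01 and 10.42 at T16 against 11.10, 10.73 and 11.05 at T0, and H2AC21, with 15.30, 15.01 and 15.09 against 15.68, 15.65 and 15.81, were lower by smaller amounts (-0.661 and -0.578, adjusted p = 0.00466 and 0.0174). The value for H2AC12 averages a bright probe set at 16.89, which differed by -1.05, and a dim one at 4.777, which differed by -0.27. The other 2 calls were H2BC12 (-0.515 ± 0.163, adjusted p = 0.0375) and H2AC7 (-1.37 ± 0.416, adjusted p = 0.0311). H2AC7 is named beside the rule after its values were seen. Leaving out single arrays kept 6 to 8 of these 8 calls, those lost being among H2AC7, H2AC21 and H2BC12.

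Shared probe sets were lower at T16 as well. Of 89, 17 passed as lower and 0 as higher, where 1.73% of all probe sets passed, and the 17 were 16 distinct profiles of H2A, H2B, H3 and H4 genes. Of the 69 distinct profiles at or above the median level 60 lay below 0, as did 43 of the 52 own probe sets. A profile of 5 H2B genes differed by -3.13 ± 0.408 (adjusted p = 2.17e-04), with 8.76, 9.35 and 8.66 at T16, against 11.92, 11.38 and 12.83 at T0. A profile of 10 H3 genes had 12.42, 12.63 and 12.41 at T16, against 14.51, 13.79 and 15.33 at T0 (-2.05 ± 0.292, adjusted p = 5.42e-04). Both were lower on every T16 array than on any T0 array.

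**Figure D5:**
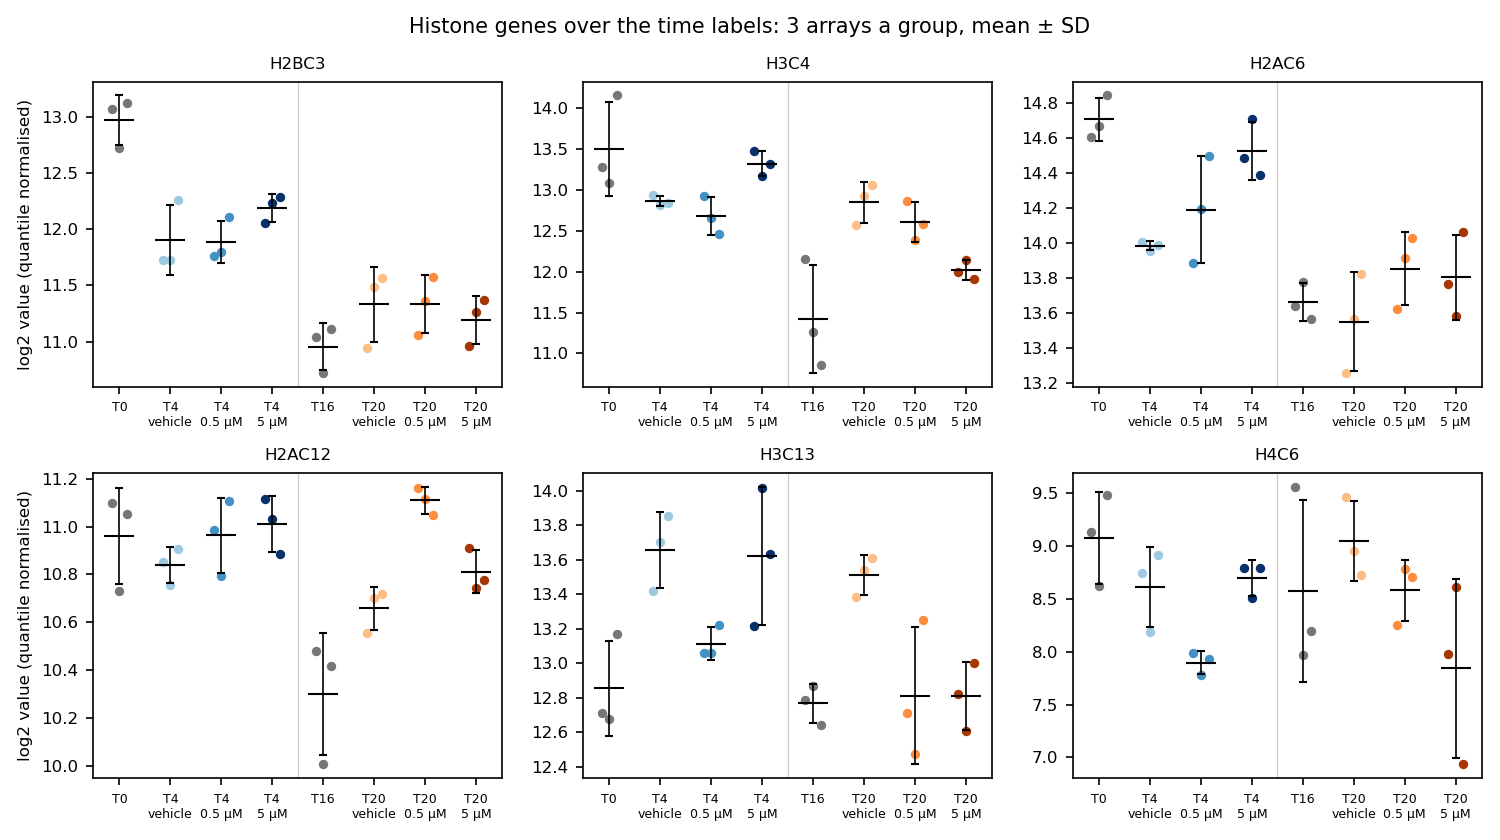
Log2 value (vertical axis, own scale per panel) of 6 histone genes in the 8 groups, with 3 arrays a group as points and the mean ± SD as bars. The T16 arrays of H2BC3, H3C4, H2AC6 and H2AC12 lie below their T0 arrays.

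In the T4 vehicle group, where time and vehicle change together relative to T0, 3 of 26 members passed, where 6.16% of all genes did. H2BC3 had 11.72, 11.73 and 12.26 in T4 vehicle, against 13.07, 12.72 and 13.12 at T0 (-1.06 ± 0.204, adjusted p = 0.00274). H2AC6 had 14.00, 13.95 and 13.99 in T4 vehicle, against 14.61, 14.67 and 14.84 at T0 (-0.723 ± 0.182, adjusted p = 0.0197). H3C13 went the other way, with 13.42, 13.70 and 13.85 in T4 vehicle, against 12.71, 12.68 and 13.17 at T0 (0.803 ± 0.213, adjusted p = 0.0272). None of these groups overlapped, which held for 7 of 26 members and 23.7% of all genes tested. The probe sets of H2BC3 differed unequally, the dim one by -2 ± 0.264 and the bright one by -0.132 ± 0.25 (adjusted p = 0.945 over all probe sets), and with the brightest probe set the calls of H2BC3 and H2AC6 are lost (adjusted p = 0.828 and 0.242). Without replicate 2 or 3 of the T4 vehicle only H2BC3 passed.

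In T20 vehicle, 6 of 26 members were higher than in the untreated cells of T16 and 0 lower, where 8.45% of all genes passed. Of the 26, 15 lay above 0, against 47.2% of all genes, and the median was 0.22, against -0.0303. By type the median was -0.277 for H1, -0.0452 for H2A, 0.313 for H2B, 1.09 for H3 and 0.476 for the 1 H4 gene, and all calls were H2B or H3. At or above the median level 26 of the 52 own probe sets and 48 of the 69 distinct shared profiles lay above 0. H2BC17 had 12.31, 12.05 and 11.76 in T20 vehicle, against 10.03, 10.48 and 10.57 at T16 (1.68 ± 0.291, adjusted p = 0.00106). H3C4 had 12.57, 12.92 and 13.06 in T20 vehicle, against 12.15, 11.26 and 10.86 at T16 (1.43 ± 0.277, adjusted p = 0.00251). H2BC14 differed by 0.683 ± 0.165, H2BC20P by 0.637 ± 0.159, H2BC21 by 0.867 ± 0.219 and H3C13 by 0.745 ± 0.213 (adjusted p = 0.0127 to 0.0334), and the groups of all 6 lay apart, as they did for 8 of 26 members and 27% of all genes tested. The calls for H2BC17 and H2BC21 rest on their dimmer probe sets, since the brightest differed by -0.36 and -0.108. Of the shared probe sets 5 passed as higher, in 4 distinct profiles of H4 and H2B, and 0 as lower, where 0.597% of all probe sets did. Without replicate 3 of T16 or replicate 2 of the T20 vehicle 3 of the 6 members still passed.

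Between the vehicle groups at T20 and T4, 3 of 26 members passed, where 3.51% of all genes did, and 5 of 26 lay above 0 with a median of -0.372. H2BC14 (-0.78 ± 0.165, adjusted p = 0.00937) and H2AC21 (-0.667 ± 0.159, adjusted p = 0.0212) were lower in T20 vehicle and H2BC20P (0.626 ± 0.159, adjusted p = 0.0308) was higher. Each of the 3 calls was lost without replicate 1 of the T20 vehicle, and H2BC14 was the 1 left without replicate 2 of the T20 vehicle or replicate 1 or 3 of the T4 vehicle. The call of H2BC14 is lost with the brightest probe set (-0.566, adjusted p = 0.0623).

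All of these differences are relative to the other genes on the array, since quantile normalisation gave every array 1 distribution. The poly-A controls, RNAs added to each sample, had means of 9.96 under 5 µM digoxin and 9.60 in vehicle at T4, and of 10.29 under 5 µM and 9.48 in vehicle at T20. On their scale the median of all genes lay at -0.357 at T4 and at -0.772 at T20 under 5 µM. On that scale 1 member, H2BC21, was higher and 1, H2BC14, lower at T4, and at T20 under 5 µM 16 members were lower and 0 higher, the median of the members lying at -0.795. H1-2 at T20 then changed sign. On the same scale T16 against T0 had 9 members lower and 0 higher, and T20 vehicle against T16 had 10 higher and 0 lower.

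Genes that make, process and regulate histone mRNA were followed as a list of 29 tested genes. At T4 under 5 µM digoxin 3 rose and 1 fell, where 7.97% of all genes passed, and the median was 0.125, against 0.0216 for all genes. CDC25A, a phosphatase that activates cyclin dependent kinases and stands upstream of S phase, rose by 1.5 ± 0.155 (adjusted p = 3.39e-06), POU2F1, the octamer factor, by 1.55 ± 0.26 and E2F1, a transcription factor of S phase genes, by 1.27 ± 0.207. CCNF, cyclin F, the ubiquitin ligase subunit that targets SLBP, fell by 0.716 ± 0.153. CDC25A, E2F1 and POU2F1 also rose at 0.5 µM, by 1.09, 0.988 and 1.25. NPAT had 13.01, 13.22 and 13.41 under 5 µM, against 12.92, 12.60 and 12.72 in vehicle, and did not pass (0.465 ± 0.166, adjusted p = 0.0905). SLBP had 15.95, 16.15 and 15.91 under 5 µM, against 16.17, 16.13 and 15.75 in vehicle, and these groups overlapped (adjusted p = 0.973). The T4 vehicle itself differed from T0 in 3 of these genes, where 6.16% of all genes passed. CCNF was higher there by 1.79 ± 0.153, and E2F1 (-0.783 ± 0.207) and CDC25A (-0.537 ± 0.155) were lower, each opposite to its difference under 5 µM.

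At T20 under 5 µM 5 genes of the list rose and 2 fell, where 6.74% of all genes were higher and 5.75% lower. SLBP had 15.55, 15.50 and 16.02 under 5 µM, against 16.18, 16.34 and 16.74 in vehicle, without overlap, and fell by 0.729 ± 0.178 (adjusted p = 0.00978). NPAT differed by -0.0374 ± 0.166 (adjusted p = 0.917). CDC25A (0.829 ± 0.155) and POU2F1 (1.20 ± 0.26) were among those that rose, and CCNF fell by 0.764 ± 0.153. In T16 against T0, 2 genes of this list rose and 3 fell, with CDC25A at -1.23 ± 0.155, a count near the 15.0% of all genes that passed. In T20 vehicle against T16, 2 rose, where 8.45% of all genes passed, CDC25A at 1.33 ± 0.155 and the S phase cyclin CCNE2 at 0.964 ± 0.223. SLBP did not pass in either (adjusted p = 0.0937 and 0.0885).

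Of 35 genes of DNA replication tested, 2 passed at T4 under 5 µM, where 7.97% of all genes did, and 1 at T20, where 12.5% did. At T4 under 5 µM UHRF1, a reader of hemimethylated DNA, rose by 0.782 ± 0.223 and PRIM1, a primase subunit, fell by 0.893 ± 0.228, and at T20 the flap endonuclease FEN1 rose by 0.581 ± 0.179 and no other passed. At T16 against T0, 4 fell and 0 rose, where 15.0% of all genes passed and 8.39% were lower, and the median of the list was -0.00435. They were the helicase subunits GINS3 (-0.735) and GINS4 (-0.751), the single strand binding subunit RPA2 (-1.18) and the licensing factor CDC6 (-0.619). In T20 vehicle against T16 GINS3 was the 1 that rose (1.13 ± 0.144).

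Of 8 replication independent histone variants tested, H3-5, an H3.3-like histone, rose at T4 under 5 µM (1.27 ± 0.382, adjusted p = 0.0452), and H2AZ1 (0.921 ± 0.241) and H2AZ2 (0.466 ± 0.144), which encode H2A.Z, rose at T20. Of all genes 7.97% passed at T4 and 12.5% at T20. Of 23 histone chaperones 0 rose and 2 fell at T4, ASF1A, which carries H3 and H4 (-0.796 ± 0.2), and UBN1, of the complex that deposits H3.3 (-1.01 ± 0.283), a count near the 7.97% of all genes. At T20 under 5 µM UBN1 was the 1 that fell (-1.65 ± 0.283) and 0 rose, where 12.5% of all genes passed.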

How the data were processed

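RNA of 24 samples was amplified, labelled and hybridised to Human Gene 2.0 ST arrays. The deposited log2 values of 352859 probe sets were made by the authors with Robust Multi-array Average normalisation in the GIANT tools, per the series' design text, and the submitters' processing notes name limma. The sources used here give no version, background correction or genome build. Array medians ran from 6.25 to 6.38.

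The 259224 probe sets annotated with a single symbol were used, and 1726 symbols were updated through RefSeq. Those with several symbols (13116) or none (80519) were not, other than the shared histone probe sets, which were fitted with all probe sets. Values were quantile normalised between arrays and summarised as the median per gene. lmFit and eBayes of limma 3.58.1 in R 4.3.3 were fitted to 8 group means on 24 arrays (16 residual and 4.06 prior degrees of freedom), with 12 comparisons, two-sided, and Benjamini-Hochberg adjustment per comparison. A test on simulated data for T4 5 µM against vehicle (11048 genes) recovered 4.48%, 58.2% and 93.9% of genes changed by 0.5, 1 and 2 (log2), with 6.3% false among 111 calls.

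The members, gene lists and tests were chosen with earlier results of these data known. By rule the text names each member that passed in a digoxin comparison or in the T20 minus T4 comparisons, the 5 highest and 3 lowest in level, up to 6 members by adjusted p in each comparison between times, up to 4 genes of each other list by adjusted p in the 5 µM comparisons, and SLBP and NPAT. Genes of those lists given for the comparisons between times were named beside this rule. Alternatives were other summaries of probe sets, scalings, filters, fits and a replicate block, and leaving out each array. Replicate numbers were not used as pairs, since deviations of arrays with 1 number correlated at -0.137 to 0.124.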

Additional observations from a re-analysis of the deposited data

Results flagged for a closer look

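The effect of 5 µM digoxin differed between T20 and T4 by a test of the difference itself for 2 members. For H2BC21 the effect at T20 minus that at T4 was -1.66 ± 0.31 (adjusted p = 0.0236), from 0.417 at T20 and 2.08 at T4, and for H2BC20P it was -1.14 ± 0.225 (adjusted p = 0.0449), from -0.192 at T20 and 0.947 at T4. For H2BC21 the value of the brightest probe set alone was 0.0967 (adjusted p = 0.89). H2BC20P is a pseudogene read by 1 probe set, and its signal cannot be told apart from that of near-identical H2B genes.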

How the results depend on the processing

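Of 33 calls of a member in a comparison, 28 kept direction and threshold with the median polish of probe sets, 30 with their mean, 32 without probe sets near the top of the scale, 26 on the values as deposited, 29 with arrays centred on their medians, 20 with scaling to poly-A controls, 32 with a filter on the highest group mean, 19 with no filter, 32 with eBayes with trend and robust, and 11 in fits of only the arrays compared. With the replicate block 32 were kept: H2BC20P lost its call in the 5 µM effect at T20 minus T4, where 1 member then passed in place of 2, and no other call was lost. The numbers do not pair the samples.

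The number of members that passed at an adjusted p under 0.05 was compared with that of the main fit. Settings in which this number differed by a factor of over 1.5 are listed here. The factor applies to the number of calls and not to the values of a gene. At T4 0.5 µM 1 passed with the median polish or the mean. At T4 5 µM 11 passed with the median polish, 10 with the mean and 2 on the poly-A scale. At T20 0.5 µM 4, 5 and 2 passed under the same settings and 0 in the fit of only the arrays compared. At T20 5 µM 8 passed with the mean, 3 with centring, 16 on the poly-A scale, 2 with no filter and 1 in the fit of only the arrays compared. For T4 5 µM against 0.5 µM 0 passed as deposited, on the poly-A scale or in that fit, and for T20 5 µM against 0.5 µM 1 with the median polish, the mean or the trend and 2 on the poly-A scale. For the 5 µM effect at T20 minus T4 1 passed with the median polish, the mean, without the top of the scale, on the poly-A scale or with the filter on the highest group mean, and 0 as deposited, centred, with no filter or in the fit of only the arrays compared. T4 vehicle against T0 had 5 with the median polish or the mean, 1 on the poly-A scale or with no filter and 0 in the fit of only the arrays compared. T16 against T0 had 5 with no filter or in that fit, T20 vehicle against T16 10 on the poly-A scale and 1 in that fit, and T20 vehicle against T4 vehicle 6 with the median polish, 0 on the poly-A scale or in that fit and 1 with no filter. Fits of only the arrays compared have fewer samples. For the other settings the cause was not tested. On the values as deposited 1 of the shared probe sets passed at T20 5 µM in place of 2.

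H1-2 at T20 5 µM reversed to -0.257 on the poly-A scale. With the probe set of the highest mean per gene, chosen after seeing the data, 21 of 31 calls were kept and 3 reversed: the 5 µM effect at T20 minus T4 for H2BC21 (0.0967), and T20 vehicle against T16 for H2BC17 (-0.36) and H2BC21 (-0.108). Members that passed were then 2 at T20 0.5 µM, 8 at T20 5 µM, 0 between the doses at T4, 1 between the doses at T20, 1 for the 5 µM effect at T20 minus T4 and 5 for T20 vehicle against T4 vehicle.

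Leaving out each array in turn gave 0 to 1 members at T4 0.5 µM, 3 to 8 at T4 5 µM, 1 to 2 at T20 0.5 µM, 1 to 7 at T20 5 µM, 0 to 1 between the doses at T4, 0 between the doses at T20 and for the 0.5 µM effect at T20 minus T4, 0 to 3 for the 5 µM effect, 1 to 3 for T4 vehicle against T0, 6 to 9 for T16 against T0, 3 to 6 for T20 vehicle against T16 and 0 to 4 for T20 vehicle against T4 vehicle. No member reversed. Counts of member promoters with a motif did not change when only bases before the gene start were read. In the simulated data 4.48% of genes changed by 0.5 at T4 5 µM were recovered, so smaller changes of members are largely below what 3 arrays a group can show.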
